A study of Mus musculus with 6 samples.

Results

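A group of 9 genes was followed in whole retina of Atrx knockout and wildtype mice: Wdr66 and Mlf1, both known from cells with motile cilia, the transcription factor genes Rfx1, Rfx2, Rfx3, Rfx4, Rfx5 and Rfx7, and Foxj1. They were chosen by gene symbol, with their knockout and wildtype values in these same arrays already known, so those values are a description and carry no p-value. All 9 had exactly 1 probe set with that symbol alone, out of 23521 such probe sets on the array, and all 9 were among the 15619 genes bright enough to test. The knockout mice had the genotype Chx10Cre+/-;Atrx flox/y, and their wildtype littermates Chx10Cre-/-;Atrx flox/y, so animals of both groups carried the floxed Atrx allele. All were males at postnatal day 17, the age that the series' design gives as the peak of amacrine and horizontal cell loss. There were 3 arrays per group, each from the pooled retinas of both eyes. The Cre of this line is made in retinal progenitor cells, so it acts in retinal cells and not in the whole animal. Every knockout mouse carried Cre and no wildtype mouse did, so an effect of Cre and of losing Atrx cannot be told apart.

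RFX proteins bind DNA through a winged-helix domain at a sequence called the X-box, an inverted repeat found before many genes of cilia. RFX2 and RFX3 act on genes of motile and primary cilia together with FOXJ1, the forkhead factor that switches on the motile cilium programme in ependyma, airway and oviduct. Retinal neurons have no motile cilia, but the photoreceptor outer segment is a modified primary cilium, built by intraflagellar transport.

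The values are log2 expression values, on which a difference of 1 is a doubling of signal. Array medians lay between 5.57 and 5.64, and arrays correlated at r from 0.975 to 0.993. Atrx averaged 8.49 ± 0.20 in knockout and 9.02 ± 0.16 in wildtype retina (SD, n = 3 each), a log2 change of -0.53 (SE 0.12) that missed the threshold in limma (adjusted p = 0.115). Where its probes lie relative to the floxed part is not known here, so this value is a limited check of the knockout. Lens RNA was high on knockout 2 and wildtype 1, where the mean of 15 lens genes was 10.12 and 11.33, against 5.85 and 6.28 on the other knockout arrays and 5.89 and 6.01 on the other wildtype arrays. Rod genes were present on every array, with Gnat1, rod transducin, at 13.65 to 13.70 in knockout and 13.65 to 13.72 in wildtype retina. Not all rod genes were as even. Guca1b was at a log2 change of -0.74 (SE 0.16) and Gngt1 at 0.35 (SE 0.078). Called means past an adjusted p of 0.05 in limma, adjusted over every gene tested. By that rule 129 genes, 0.826%, were called: 75 higher in knockout (0.48%) and 54 lower (0.346%).

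Wdr66 and Mlf1 had the largest differences of the 9 genes, and both were higher in knockout retina. Wdr66, also called Cfap251, encodes a WD-repeat protein of the axoneme, part of the complex that links radial spokes to the dynein regulatory machinery. Its log2 values were 7.62, 7.52 and 7.60 in knockout, against 6.52, 6.59 and 6.61 in wildtype retina. The groups were far apart: the lowest knockout array lay 0.91 above the highest wildtype array, while values within either group spanned less than 0.1. The log2 difference was 1.01 (SE 0.074), a 2.01-fold higher level in knockout. Of the genes called, 17 had a larger rise.

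Mlf1 encodes myeloid leukaemia factor 1, an adaptor-like protein first met as a fusion partner in leukaemia and also abundant in testis and ciliated epithelia. Its log2 values were 6.68, 6.55 and 6.69 in knockout, against 5.97, 5.77 and 5.88 in wildtype retina. All knockout values again lay above all wildtype values, with a gap of 0.58 between the groups. The log2 difference was 0.77 (SE 0.085), or 1.70-fold higher in knockout.

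The promoters of these genes are shown because RFX and FOXJ1 act through such sequences. They run from 250 bases before to 50 bases after the RefSeq start (build GRCm38.p6), chr5:123253538-123253837 on the plus strand for Wdr66 and chr3:67373847-67374146 on the plus strand for Mlf1. Capitals mark matches to the forkhead core TGTTTA and to the X-box arm GTTGCC, and to the X-box (GTNNCC, 3 bases of any kind, then GNNAC) where one is present, all searched on both strands.
Wdr66: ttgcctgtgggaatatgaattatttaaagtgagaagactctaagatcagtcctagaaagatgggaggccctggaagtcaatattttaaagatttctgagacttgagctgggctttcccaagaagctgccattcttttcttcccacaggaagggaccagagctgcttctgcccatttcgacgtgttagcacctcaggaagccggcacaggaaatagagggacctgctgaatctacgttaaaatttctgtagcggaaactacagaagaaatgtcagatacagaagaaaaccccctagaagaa
Mlf1: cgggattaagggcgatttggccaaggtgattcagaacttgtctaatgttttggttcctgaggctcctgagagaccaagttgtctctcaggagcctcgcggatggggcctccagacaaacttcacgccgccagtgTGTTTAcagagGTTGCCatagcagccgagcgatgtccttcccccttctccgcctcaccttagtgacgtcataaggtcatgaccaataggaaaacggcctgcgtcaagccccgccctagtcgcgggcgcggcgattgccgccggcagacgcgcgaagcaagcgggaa
The Wdr66 window held none of these letters, which says only that they are not in this window. The Mlf1 window held the forkhead core at -116 and the X-box arm at -105 from the start, and no full X-box. Of all 32851 RefSeq promoters, 13.4% held the forkhead core, 12.5% the arm and 4.62% the X-box. The arm was added to the search after these sequences had been read.

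**Figure D1:**
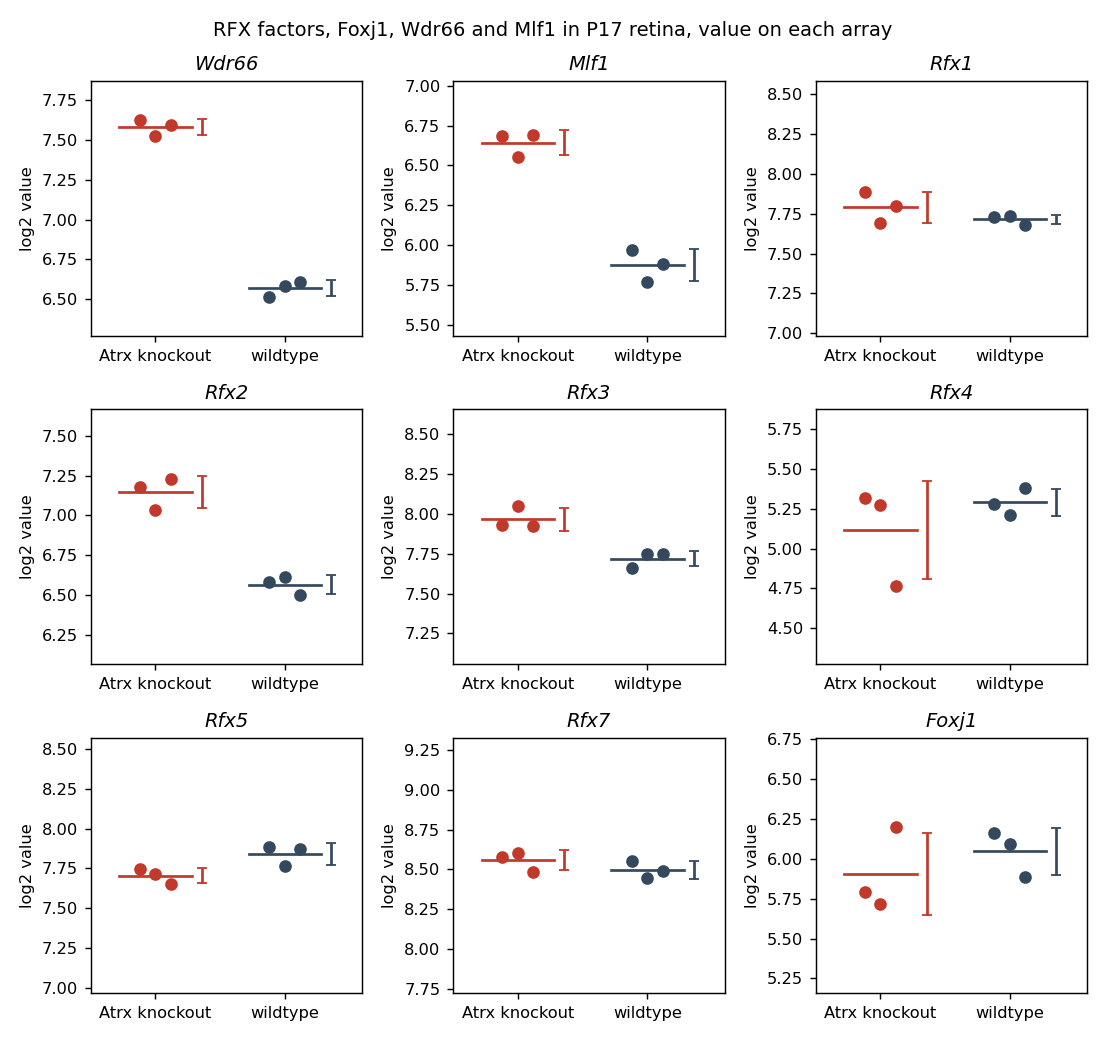
Log2 value of each of the 9 genes on each array (points), in 3 knockout (left, red) and 3 wildtype retinas (right, dark), with the group mean (line) and SD (bar beside it). All panels span the same height on the log2 axis. Knockout and wildtype points stand apart for Wdr66, Mlf1, Rfx2 and Rfx3, and by 0.017 for Rfx5; they overlap for Rfx1, Rfx4, Rfx7 and Foxj1.

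Among the RFX factors, Rfx2 had the largest difference and was higher in knockout. It met the calling rule in the main fit, but in only 8 of 16 alternatives. The genes were picked with these values known, so nothing is read from that call. Rfx3 had a smaller difference in the same direction and did not meet the rule, also not in any of 16 alternatives, and the rest differed by less than 0.2. Rfx2, a regulator of ciliogenesis and of sperm development, had log2 values of 7.18, 7.03 and 7.23 in knockout, against 6.58, 6.62 and 6.50 in wildtype retina. The groups did not overlap and were 0.42 apart. The log2 difference was 0.58 (SE 0.082), or 1.49-fold higher in knockout.

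Rfx3, needed for nodal cilia and for ependymal and pancreatic islet cells, had log2 values of 7.93, 8.05 and 7.92 in knockout, against 7.66, 7.75 and 7.75 in wildtype retina. The 3 knockout values lay above the 3 wildtype values with a gap of 0.17. The log2 difference was 0.25 (SE 0.076), 1.19-fold.

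Rfx2 and Rfx3 lie on the minus strand, and their promoter windows are chr17:56830959-56831258 and chr19:28011117-28011416. They are shown because the Rfx2 window was the only one of the tabled promoters of these genes that held a full X-box.
Rfx2: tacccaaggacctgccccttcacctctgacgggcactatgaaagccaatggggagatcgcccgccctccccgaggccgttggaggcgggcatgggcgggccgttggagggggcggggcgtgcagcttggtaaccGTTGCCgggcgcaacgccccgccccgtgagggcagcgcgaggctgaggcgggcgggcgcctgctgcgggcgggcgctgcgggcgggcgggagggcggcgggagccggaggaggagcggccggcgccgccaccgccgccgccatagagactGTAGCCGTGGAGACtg
Rfx3: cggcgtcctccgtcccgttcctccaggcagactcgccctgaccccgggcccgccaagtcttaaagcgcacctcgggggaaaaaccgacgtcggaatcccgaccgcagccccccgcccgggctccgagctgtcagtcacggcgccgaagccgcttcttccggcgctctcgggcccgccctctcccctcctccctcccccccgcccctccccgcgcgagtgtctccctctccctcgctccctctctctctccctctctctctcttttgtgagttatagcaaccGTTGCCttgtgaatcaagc
The X-box of Rfx2 began 34 bases after the start, in the capitals near the end, and an arm stood at -116. The Rfx3 window held an arm at 31 bases after the start. The Rfx1 window held one at 1 base after it. In all, 4 of the 9 promoter windows listed for these genes held the arm and 1 held the X-box. Of all promoters 12.5% held the arm and 4.62% the X-box. The arm was searched for only after these windows had been read, so nothing is read from its count. Foxj1 was not matched in the table, and Rfx4 has 2 windows there.

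Rfx1, a broadly expressed factor, had log2 values of 7.89, 7.69 and 7.80 in knockout, against 7.73, 7.74 and 7.68 in wildtype retina. Rfx7, a factor of lymphocytes and neurons with its own target genes, had 8.58, 8.61 and 8.49 in knockout, against 8.56, 8.44 and 8.49 in wildtype retina. Both sets of values overlapped between the groups, with log2 differences of 0.08 (SE 0.080) for Rfx1 and 0.06 (SE 0.076) for Rfx7.

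Rfx5, which drives MHC class II genes as part of a complex with RFXAP and RFXANK, had log2 values of 7.75, 7.72 and 7.65 in knockout, against 7.89, 7.76 and 7.87 in wildtype retina. Every knockout value lay below every wildtype value, but by a gap of only 0.017. The log2 difference was -0.14 (SE 0.076). Another probe set, shared with B230398E01Rik, which cannot be credited to Rfx5 alone, differed by -0.11.

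Rfx4, a factor of the developing brain, had values near the brightness floor of 5, and Foxj1 was dim but brighter than Rfx4. Rfx4 had log2 values of 5.32, 5.27 and 4.77 in knockout, against 5.28, 5.21 and 5.38 in wildtype retina. Its lower mean in knockout came from knockout 3, and without that array the log2 difference was 0.00. Foxj1 had 5.79, 5.72 and 6.20 in knockout, against 6.16, 6.09 and 5.88 in wildtype retina. These values overlapped throughout, with a log2 difference of -0.14 (SE 0.14), and the difference was 0.01 without both lens-rich arrays. At this brightness background compresses a fold change, so a change in either gene may be understated. Mlf1 in wildtype retina was dimmer than Foxj1 (means of 5.87 and 6.05), so the same limit applies to the difference of Mlf1.

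**Figure D2:**
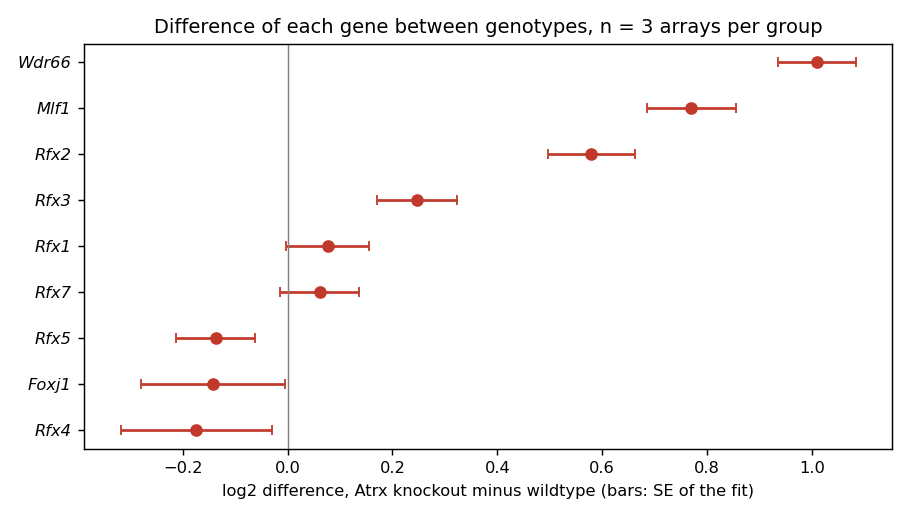
Log2 difference (knockout minus wildtype) of the 9 genes on the horizontal axis, with the standard error of the fit as bars (n = 3 arrays per group). Wdr66, Mlf1, Rfx2 and Rfx3 lie to the right of 0 and the other 5 genes within 0.2 of it.

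Of the 9 genes 3, namely Wdr66, Mlf1 and Rfx2, met the calling rule, against 0.826% of all genes, and 6 did not. For 4 genes all knockout values lay above the wildtype values and for 1 below; groups that do not overlap were seen for 20.3% of all genes, 10.7% above and 9.58% below. Since the genes were picked with these values known, nothing is read from either count. Wdr66 met the rule in all 16 alternatives run. Mlf1 met it in 14, not without wildtype 2 or wildtype 3. Rfx2 met it in 8, not without any single array but knockout 2, nor without both lens-rich arrays. These refits draw on the same 6 arrays that the genes were picked from. They show only how far a result depends on the processing and are no further support. The median log2 difference was 0.08 over the 9 genes and 0.00 over all genes tested. Without both lens-rich arrays the log2 differences were 1.01 for Wdr66, 0.86 for Mlf1, 0.64 for Rfx2 and 0.18 for Rfx3. In a whole-tissue sample, more cells of a type and more RNA per cell cannot be told apart.

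No tested gene of the motile cilium lists was called higher beside Wdr66 and Mlf1. Across 5 lists of such genes, 135 entries without Wdr66, Mlf1, Foxj1 and the RFX factors, 78 were bright enough to test, 46 were under the brightness floor and 11 were not matched to a single-symbol probe set. Of the 78, 0 were called higher and 1 was called lower, against 0.48% and 0.346% of all genes. At an unadjusted p under 0.05 in limma 11 were higher (14.1%) and 2 lower, against 6.99% higher and 6.5% lower of all genes, 13.5% together. Their median log2 change was 0.07, with 50 above 0, against a median of 0.00 and 7944 of 15619 above 0 for all genes.

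Dnah9, the heavy chain of an outer arm dynein, was the called gene, and it was lower in knockout. Its log2 values were 6.16, 6.43 and 6.44 in knockout, against 6.97, 7.07 and 7.10 in wildtype retina. No values overlapped, and the log2 change was -0.70 (SE 0.097, adjusted p = 0.017 in limma). The call was lost without wildtype 1 (adjusted p = 0.054), wildtype 2 (0.104) or wildtype 3 (0.099), and without both lens-rich arrays (0.074), while the log2 change stayed between -0.61 and -0.79 in these and all other alternatives. The other 12 tested genes of dynein arms and their docking were not called. Ttc25, a docking factor, was at 0.28 (adjusted p = 0.176 in limma), Dnal1, a dynein light chain, at 0.21 (0.451) and Dnah2 at -0.17 (0.505).

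None of the 10 tested dynein assembly factors was called. At an unadjusted p under 0.05 in limma there was 1, against 13.5% of all genes. Zmynd10, needed for dynein arm assembly, was at a log2 change of 0.30 (adjusted p = 0.313 in limma), Dnaaf4 at 0.22 (0.455), Pih1d2 at 0.16 (0.490) and Dnaaf3 at -0.16 (0.579).

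The radial spoke, nexin link and central pair list holds the partners of Wdr66 in its complex, beside genes of other parts of the axoneme. None of its 23 tested genes was called in limma, with 5 higher at an unadjusted p under 0.05 (21.7%, against 6.99% of all genes), and its median log2 change was 0.13, with 15 above 0. In 7 genes all knockout values were above the wildtype values and in 3 below, against 10.7% and 9.58% of all genes. Rsph9, a spoke head protein, had log2 values of 7.21, 6.99 and 6.94 in knockout, against 6.82, 6.48 and 6.54 in wildtype retina. These values did not overlap, but the log2 change of 0.44 (SE 0.12) missed the threshold (adjusted p = 0.154 in limma). Cfap61, which belongs to the same spoke-associated complex as Wdr66, had 8.12, 8.20 and 8.10 in knockout, against 7.91, 7.74 and 8.01 in wildtype retina, a log2 change of 0.26 (SE 0.090, adjusted p = 0.277). It was not among the 4 genes with the smallest p of its list and was added because of that complex. Iqub, a spoke protein, was at 0.42 (adjusted p = 0.175), Cfap70 at 0.44 (0.222) and Cfap45, inside the doublet microtubules, at 0.30 (0.167). Maats1, or Cfap91, the third partner, was too dim to test.

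In the list of other ciliated-cell genes 16 of 38 could be tested and none was called. At an unadjusted p under 0.05 in limma 3 were higher and 1 lower, against 6.99% and 6.5% of all genes. Cdhr3, a cadherin of ciliated airway cells, was at a log2 change of 0.37 (adjusted p = 0.153 in limma), Spa17 at 0.33 (0.260), Ribc2 at 0.30 (0.363) and Spag8 at -0.26 (0.261). The 20 genes that were too dim included markers of multiciliated cells such as Tekt4, Tmem212, Sntn, Capsl and Stoml3.

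The multiciliation programme, the regulators that set up many centrioles in a cell, had no called gene among 16 tested in limma. At an unadjusted p under 0.05 in limma 1 was higher, against 6.99% of all genes. Gmnc and Ccno were among its genes that were too dim. Myb, a factor of dividing and multiciliating cells, had log2 values of 7.10, 6.81 and 6.97 in knockout, against 6.53, 6.41 and 6.46 in wildtype retina. The log2 change was 0.49 (SE 0.092) and just missed the threshold (adjusted p = 0.061 in limma). It passed with a log2 floor of 6 (0.030), with an intensity trend and robust spread (0.031), with array weights (0.040) and without knockout 2 (0.037). Its probe sets disagreed: averaged over both of them the log2 change was 0.12. Ccdc78 was at -0.28 (adjusted p = 0.472), Cntrob at -0.14 (0.522) and E2f5 at 0.13 (0.533).

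Tested genes of primary cilia were not called either. Among 56 tested genes of intraflagellar transport, the BBSome, the transition zone and the basal body, none was called in limma, 10 were higher (17.9%) and 1 lower at an unadjusted p under 0.05, against 6.99% and 6.5% of all genes, and the median log2 change was 0.04. All knockout values lay above all wildtype values for 11 of these genes and below for 4, against 10.7% and 9.58% of all genes. Bbs4, a BBSome subunit, had log2 values of 10.17, 9.98 and 9.79 in knockout, against 9.57, 9.44 and 9.66 in wildtype retina, a log2 change of 0.42 (SE 0.11, adjusted p = 0.154). The transport proteins Ttc26 and Dync2li1 were at 0.38 (adjusted p = 0.162) and 0.31 (0.161), and the BBSome subunit Bbs9 at 0.26 (0.176). In the transition zone and basal body list Nphp4 was at 0.31 (adjusted p = 0.132), Ofd1 at 0.28 (0.272), Cep290 at 0.24 (0.355) and Rpgr at -0.19 (0.380).

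**Figure D3:**
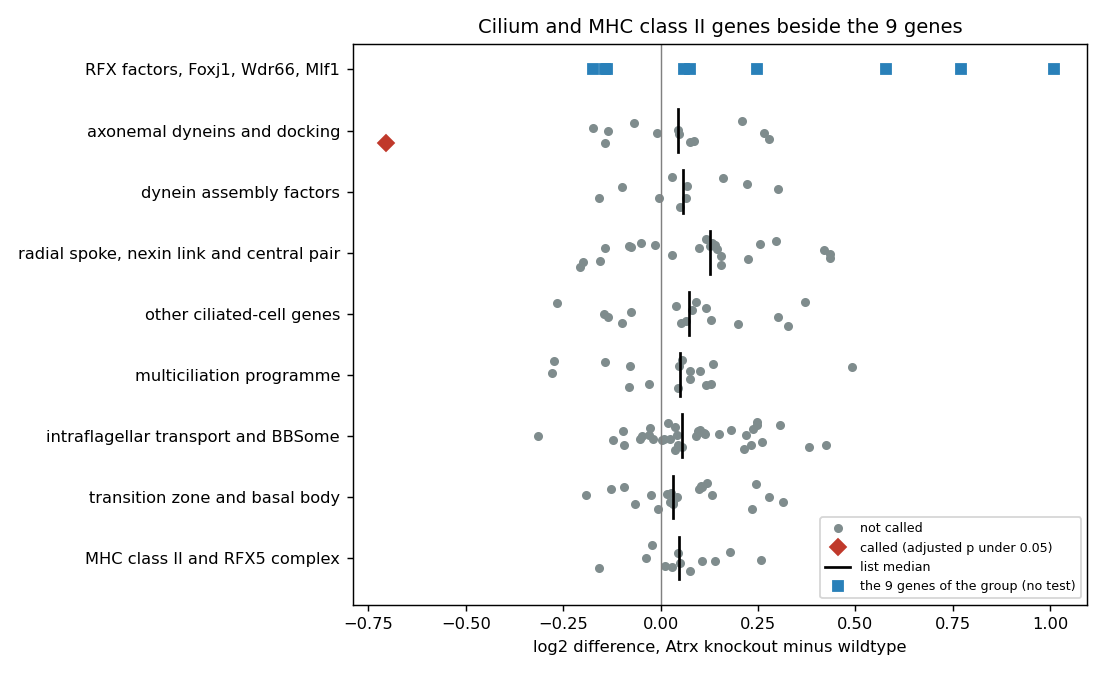
Log2 difference (knockout minus wildtype, horizontal axis) of each tested gene of 7 cilium lists and of the MHC class II list, 1 point per gene, with the list median as a black line. The 9 genes are the blue squares of the top row, drawn with no test. Dnah9, at -0.70, is the only called gene (red diamond), and no list gene is as far above 0 as Rfx2, at 0.58.

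The X-box itself was frequent before cilium genes, including those not called. It was found in 31 of 127 promoters of the motile cilium lists (24.4%) and in 17 of 66 of the primary cilium lists (25.8%), against 4.62% of all promoters. Dynein assembly factors had the highest share, 5 of 10. The matches before 4 genes described above are shown, with capitals marking the whole match:
Rsph9: GTCTCCATGGAGAC
Cfap61: GTTTCCTTAGCAAC
Cfap45: GTTACCATAGCAAC
Ttc26: GTTGCCGTGGAAAC
They share the fixed letters of the X-box, and began at -6, -8, -19 and -33 from the starts of Rsph9, Cfap61, Cfap45 and Ttc26. A match is a description of the letters and not evidence of binding.

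Few tested genes with an X-box were called. Leaving out the 9 genes, 768 tested genes had an X-box in a RefSeq promoter. Of these 1 was called (0.13%), in limma, and it was higher; it has the locus name BC107364 and was named after its value was seen. Of all 12138 tested genes with a tabled promoter 0.824% were called. At an unadjusted p under 0.05 in limma, 62 of the 768 were higher and 53 lower. Of the 12138 genes with a tabled promoter 844 were higher and 771 lower, and of all genes tested 6.99% and 6.5%. The median log2 change was 0.01 with an X-box and 0.00 without. Within the cilium lists it was 0.04 for the 31 tested genes with an X-box and 0.05 for the 85 without. Of these 31 genes 8 were higher and 1 lower at an unadjusted p under 0.05, and of the 85 without an X-box 10 were higher and 2 lower. All knockout values lay above all wildtype values for 10 of the 31 and 11 of the 85, and below for 3 and 6. Of all genes, 10.7% lay above and 9.58% below, and no difference between these sets was tested.

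**Figure D4:**
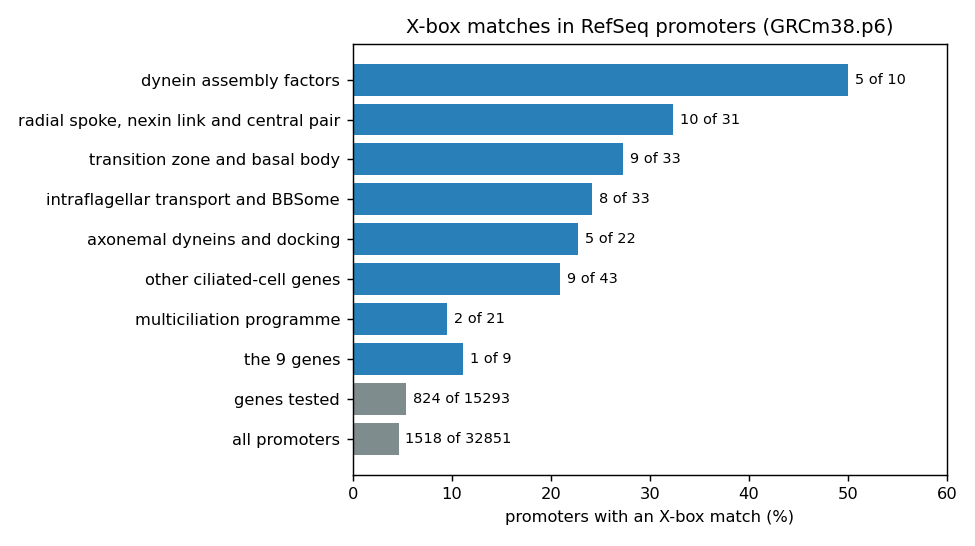
Percent of RefSeq promoters with an X-box match (horizontal axis, from 0) for each cilium list and the 9 genes (blue), against the promoters of all genes tested and all 32851 promoters (grey); the labels give the counts. The lists lie between 9.52% and 50%, above the 4.62% of all promoters.

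Partners and targets of single members were also followed. In the list of MHC class II genes and the RFX5 complex none of 12 tested genes was called. At an unadjusted p under 0.05 in limma there was 1, against 13.5% of all genes. The RFX5 partners Rfxap and Rfxank had log2 means of 7.74 and 7.91 in knockout, against 7.76 and 7.95 in wildtype retina. Ciita, the master regulator of class II genes, was at 5.79 in knockout and 5.74 in wildtype retina, and H2-Ab1, a class II chain, at 5.36 and 5.26. Creb1 was at a log2 change of 0.26 (adjusted p = 0.227), Nfyb at 0.14 (0.509), H2-DMa at 0.18 (0.535) and Nfyc at 0.08 (0.693). The 11 tested microglia markers, from cells that can carry class II proteins, had mean log2 values of 6.24 to 6.44 on the knockout arrays and 6.36 to 6.40 on the wildtype arrays.

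Other members of the families showed no call. Rfx6 and Rfx8 were too dim to test. The forkhead genes Foxj2 and Foxj3 were at log2 changes of -0.15 (adjusted p = 0.451) and 0.10 (0.644). Mlf2, the paralogue of Mlf1, was at 11.38 in knockout and 11.41 in wildtype retina, a log2 change of -0.03 (0.909). Of known MLF1 partners, Cops3, a signalosome subunit, was at 0.17 (0.363), Nrbp1 at 0.02 (0.944) and Ywhaz at 0.00 (0.996).

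Wdr66, Mlf1 and Rfx2 are also genes of the testis, and a list of germ cell genes was counted for that reason. Of 29 entries 10 could be tested and 17 were too dim, and 1, Tex15, was called, against 0.826% of all genes. So few tested genes say little about the list. Tex15, a gene of male meiosis, had log2 values of 6.82, 7.06 and 6.44 in knockout, against 5.41, 5.21 and 5.38 in wildtype retina. The log2 change was 1.44 (SE 0.15, adjusted p = 0.0067 in limma), and it was called in each of 16 alternatives. The next 3 by p were Tex19.1 at -0.12 (adjusted p = 0.558), Mybl1 at 0.22 (0.588) and Mov10l1 at 0.17 (0.596).

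Markers of cells that bear motile cilia or lie near the retina were read beside these results. The mean of 10 ependyma and choroid plexus genes was 7.84, 8.02 and 8.11 in knockout, against 7.91, 8.05 and 7.95 in wildtype retina, so the groups overlapped. Ttr, the main choroid plexus product, which pigment epithelium also makes, had means of 11.51 in knockout and 11.59 in wildtype retina; Tmem212 and Mia were too dim. Calml4 of that list was at a log2 change of 0.49 (adjusted p = 0.132), Otx2, which the retina itself uses, at 0.17 (0.396) and Acta2 at -0.54 (0.558). The mean of 13 ciliary body epithelium genes was 7.43 to 7.67 in knockout and 7.59 to 7.70 in wildtype retina. In it the proton channel Otop3 rose (1.18, SE 0.095, adjusted p = 0.0023) and the bestrophin Best2 fell (-1.20, SE 0.14, adjusted p = 0.010), while Col9a1 was at -0.26 (0.292) and Aqp4 at 0.27 (0.308). The mean of 14 pigment epithelium genes was 8.51 to 9.43 in knockout and 8.94 to 9.62 in wildtype retina. These genes did not move as one. On knockout 1 Tyr was at 5.70 and Pmel at 9.18, against 7.07 to 7.74 and 10.60 to 11.12 on the other arrays. Rpe65 and Lrat were lowest on wildtype 1, at 7.46 and 7.52. In limma 0 of 15 lens, 14 pigment epithelium, 11 microglia and 13 rod genes were called. At an unadjusted p under 0.05 in limma, 1 pigment epithelium gene, Rlbp1, was lower, and of the rod genes 1 was higher and 1 lower. These counts stand against 6.99% higher and 6.5% lower of all genes. All knockout values lay above all wildtype values for 5 of the 13 rod genes (38.5%) and below for 1. Of all genes, 10.7% lay above and 9.58% below. The part of any of these tissues in the levels of Wdr66, Mlf1 and Rfx2 was not tested.

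The genes whose values ran closest to those of Wdr66 and Mlf1 came from other classes. Likeness was the root mean square difference of log2 values over the 6 arrays after each gene's mean was taken away. Closest to Wdr66 were Rnf123, a ubiquitin ligase (0.109), Bub1b, a spindle checkpoint kinase (0.109), the kinase Stk17b (0.115), Otop3 (0.120) and Zfp949 (0.131). Their log2 differences were 0.97, 0.87, 0.90, 1.18 and 1.17. Closest to Mlf1 were Susd3 (0.0716), Gnat3, the G protein of taste cells (0.0733), Haus8, a subunit of the spindle's augmin complex (0.0804), the mitotic kinesin Kif22 (0.0841) and the histone gene H2aw (0.0879). Their log2 differences were 0.73, 0.70, 0.68, 0.61 and 0.76. None of these 10 is in a cilium list, and they follow from the genotype difference that Wdr66 and Mlf1 were chosen for.

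**Figure D5:**
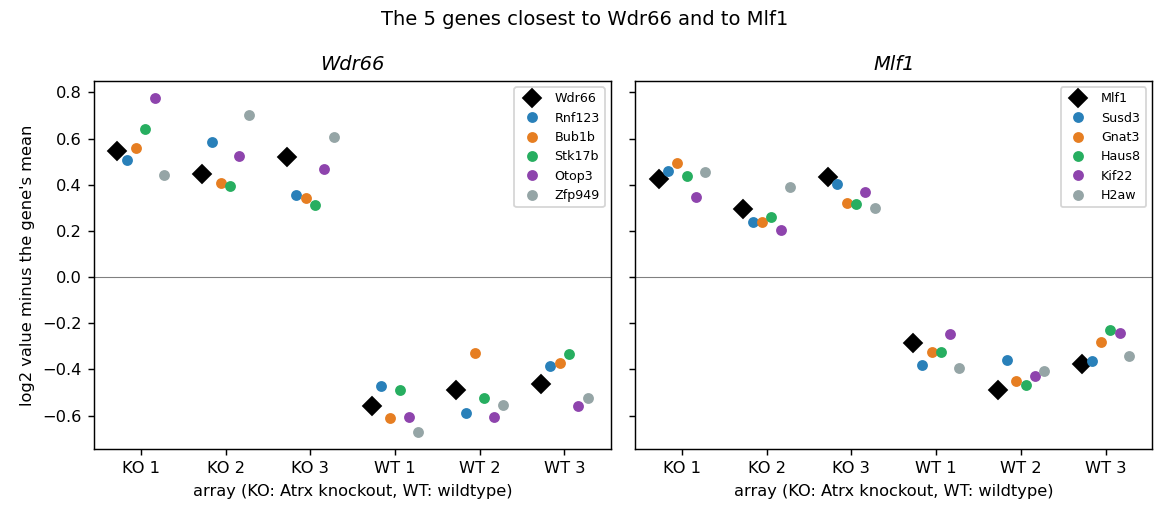
Log2 value minus the gene's own mean (vertical axis) on each knockout (KO, left) and wildtype (WT, right) array for Wdr66 and Mlf1 (black diamonds) and the 5 genes closest to each (coloured points). All 6 genes of each panel lie above 0 on the knockout arrays and below 0 on the wildtype arrays.

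Among the neighbours of Wdr66, Mlf1 and Rfx2 on the chromosome none of 15 tested was called in limma, against 0.826% of all genes. At that share so few genes say little about an effect on neighbours. The 3 protein-coding genes on each side of each of the 9 genes, in RefSeq order, gave 54 neighbours, of which 47 were tested. On one side of Wdr66 stands Psmd9, a proteasome chaperone, with a log2 change of 0.05 (adjusted p = 0.848 in limma), and on the other Bcl7a, a chromatin remodeller subunit, with 0.01 (0.977). Rsrc1, next to Mlf1, was at -0.30 (0.265), and Acsbg2, next to Rfx2, at -0.34 (0.211). The 1 neighbour called of the 47 tested was Prtg, a receptor of the developing nervous system near Rfx7, at 0.60 (SE 0.10, adjusted p = 0.043). This comparison and the names in it were chosen after the values of the 9 genes were seen.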

How the data were processed

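Total RNA of whole retina (100 ng per sample) was measured on Affymetrix mouse gene arrays. The authors deposited log2 values of 41345 probe sets, which come from RMA, per the submitters' processing notes; the sources used here give neither its version nor the genome build. RMA equalises array distributions, so a change in total RNA per cell would not be seen. Genes were named from the 23521 probe sets with 1 symbol. Genes with a log2 value of 5 or more on 3 or more of the 6 arrays were tested, by their brightest probe set (15619 genes).

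Knockout and wildtype were compared with limma 3.58.1 in R 4.3.3, 2-sided, with genotype as the only term and Benjamini-Hochberg adjustment over all genes tested. SE is limma's moderated standard error. The number of arrays limits the precision (median SE 0.095). The labels do not say more of the replicates than that both eyes were pooled, so p-values measure the spread between these samples. The method was also run on simulated data with independent noise and no lens-rich arrays, so that run does not cover such spread in the real arrays.

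The 9 genes and all gene lists were chosen with earlier results of these data known. Named list genes are up to 4 per list with the smallest unadjusted p, with the exceptions stated. Ttr, Tyr, Pmel, Rpe65, Lrat, Rfxap, Rfxank, Ciita and H2-Ab1 were also named outside that rule. Lens, microglia and rod lists served as checks of the tissue. Promoters came from RefSeq (GRCm38.p6) and 8 of the 9 genes were matched by symbol. Figures were drawn with matplotlib 3.10.9.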

Additional observations from a re-analysis of the deposited data

How the results depend on the processing

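The total called, the motile, primary cilium, MHC class II and germ cell counts and the differences of the 9 genes were recomputed under 16 alternatives (15 for Rfx4); promoter, neighbour and likeness results were not. The total of 129 called genes became 74 with no filter on dim probe sets, 209 with a log2 floor of 6, 282 with an intensity trend and robust spread, 68 with the replicate block and 36 without both lens-rich arrays; leaving out 1 array gave 25 to 141. The motile cilium lists had 2 called genes with a floor of 6, an intensity trend or array weights, 0 without both lens-rich arrays, and 0 to 2 without 1 array. The floor alters the number of genes tested and the left-out arrays the sample size; the cause of the other shifts was not tested. The primary cilium, MHC class II and germ cell counts did not move in any alternative. Rfx2 also missed the calling rule with no filter and with the replicate block, and Rfx4 was not tested with a floor of 6. The log2 difference ran from 0.98 to 1.04 for Wdr66, from 0.72 to 0.86 for Mlf1, from 0.54 to 0.64 for Rfx2 and from 0.18 to 0.27 for Rfx3. Same-numbered arrays of the 2 groups deviated apart (correlations of -0.274, -0.381 and -0.058). The lens-rich arrays, knockout 2 and wildtype 1, bear different numbers, and their deviations correlated at 0.387. The check therefore cannot decide whether the numbers pair the samples. With no filter on dim probe sets 22180 genes were tested. Dim genes limit what can be seen: 46 motile cilium genes had no test.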
